A study of Mus musculus with 11 samples.

Results

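The genes described here are transcription factor genes of the gut and its regions and the noncoding transcript Gata6os, 8 in all. The factors are the GATA factors Gata4, Gata5 and Gata6 and the caudal homeobox genes Cdx1 and Cdx2. Added to these are the pancreatic and duodenal homeobox gene Pdx1 and the cut homeobox gene Onecut2. All 8 genes were chosen by name for their known roles, with earlier results of these data known. Each was found among the 24294 gene symbols measured. RNA from mouse small intestine was sequenced in 11 libraries, labelled ND (3), HFD (4) and HLJDD (4). The series title names Huang Lian Jiedu Decoction, a herbal preparation with the initials of the last group, together with obese mice and the hormone encoded by Gip. The labels give neither a strain, age, sex, genotype, dose nor duration for any group, do not spell out ND or HFD, and do not say what diet the HLJDD mice ate or which stretch of small intestine was taken. Nothing in them ties libraries to separate mice, and the spread behind each p-value may therefore be technical only.

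GATA factors are zinc finger proteins that bind the letters GATA in DNA. In the adult mouse, GATA4 is present in duodenal and jejunal epithelium and absent from the distal ileum, and its loss from the jejunum is known to let ileal genes come on there. GATA6 is present along the whole small intestine and GATA5 is also made in the epithelium. CDX1 and CDX2 are homeodomain proteins that set intestinal identity from the duodenum to the colon, and CDX2 keeps intestinal cells from taking a stomach fate. PDX1 marks the pancreas, the antrum and the proximal duodenum and is needed for cells that make the hormone GIP, and ONECUT2 is a factor of duodenal epithelium.

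GATA4 and CDX2 are known to act together on genes of the absorptive cell, so the stretches before the start sites of Lct, Fabp1, Fabp6, Slc10a2 and Gip and of 3 members were searched for both motifs. Of 8 windows searched, the 4 with a match are printed here so that the matches can be seen. The windows of Fabp6, Gata5, Pdx1 and Cdx2 held 0 matches to either motif. Lct encodes lactase and Fabp1 the liver-type fatty acid binding protein, and both are known to be activated by GATA4. Slc10a2 encodes the ileal bile acid transporter, which is known to be held down by GATA4, and Gip encodes the hormone of the series title. Each window holds the 250 bases before the 1 RefSeq start site used per gene on GRCm38.p6, 5′ to 3′ on the gene's own strand. For Gata5 and Gip this site lies inside the gene's full span and not at its outer end. The Gata5 window (chr2:180334680-180334929) is within the span 180325088 to 180335503. The span of Gip starts at 96024532, before its window ends. Matches before the outer start of Gata5 were not searched. They lie at chr1:128328319-128328568 (minus strand) for Lct, chr11:96024295-96024544 (plus strand) for Gip, chr6:71199629-71199878 (plus strand) for Fabp1 and chr8:5105288-5105537 (minus strand) for Slc10a2. Capitals mark matches on either strand to a GATA motif (AGATAA, likewise the form TGATAA, likewise the form AGATAG, likewise the form TGATAG) or a CDX motif (TTTATNG). No match overlapped another.
Lct: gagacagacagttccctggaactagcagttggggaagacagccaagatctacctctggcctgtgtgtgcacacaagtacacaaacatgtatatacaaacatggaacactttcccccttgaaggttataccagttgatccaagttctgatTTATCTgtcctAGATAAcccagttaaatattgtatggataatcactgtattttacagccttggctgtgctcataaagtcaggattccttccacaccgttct
Gip: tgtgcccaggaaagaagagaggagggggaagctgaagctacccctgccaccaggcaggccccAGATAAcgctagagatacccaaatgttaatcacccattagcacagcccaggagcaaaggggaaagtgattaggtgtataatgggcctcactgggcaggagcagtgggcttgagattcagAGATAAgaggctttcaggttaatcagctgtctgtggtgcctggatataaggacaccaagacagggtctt
Fabp1: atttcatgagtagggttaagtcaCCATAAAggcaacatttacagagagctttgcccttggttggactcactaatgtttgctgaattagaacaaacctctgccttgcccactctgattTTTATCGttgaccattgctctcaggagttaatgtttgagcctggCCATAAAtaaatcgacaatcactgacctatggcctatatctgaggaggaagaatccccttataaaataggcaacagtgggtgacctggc
Slc10a2: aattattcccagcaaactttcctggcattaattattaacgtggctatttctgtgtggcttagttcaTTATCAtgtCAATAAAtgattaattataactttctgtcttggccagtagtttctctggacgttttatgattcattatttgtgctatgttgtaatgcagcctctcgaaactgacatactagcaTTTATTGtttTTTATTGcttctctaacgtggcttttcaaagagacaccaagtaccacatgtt

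Lct held 2 GATA matches, with their first bases 101 and 90 bases before the start site, and no CDX match. Gip held 2 GATA matches, 188 and 69 bases before the start. Fabp1 held 3 CDX matches, 227, 133 and 89 bases before the start, and no GATA match. Slc10a2 held 1 GATA match 184 bases before the start and 3 CDX matches at 175, 62 and 52 bases. Of 32851 RefSeq promoter windows of this length, 26.5% held a GATA match, 9.81% a CDX match and 3.48% both. These are matches of letters, and binding was not measured.

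The libraries held 30100546 to 37940746 reads in genes, worked back from the deposited FPKM (fragments scaled by gene length and library total), so that 1 FPKM of a gene of 1 kb stood for 30.1 to 37.9 reads. Mitochondrial transcripts made up 32.4% of the reads of HFD replicate 1, 40.7% of those of HLJDD replicate 2 and 10.4% to 19.3% elsewhere. These 2 libraries had scaling factors of 0.7637 and 0.7585 against 0.9966 to 1.148 in the others. The median log2 change of all tested genes was -0.205 for HFD against ND and -0.01 after median-ratio scaling, which sets the median gene level between libraries. Values are therefore given as deposited and, where it matters, after this scaling. Epithelial markers summed to 6544 to 6858 FPKM in ND, 5007 to 7258 in HFD and 4671 to 7007 in HLJDD. Muc6 and Tff2, markers of the duodenal Brunner glands, were under 1 FPKM in every library, as were all 6 stomach markers in the table. The Brunner gland list held 3 genes in the table, and 1 was high enough to be tested. The list summed to 124.6 to 135.1 FPKM in ND, 16.4 to 84.8 in HFD and 74.8 to 103.6 in HLJDD. The tested gene had a log2 change of -1.22 for HFD against ND and was not called.

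Per length, the CDX genes were the most abundant members. Cdx2 had the highest FPKM of the 8 genes in 9 of 11 libraries, with Gata6 highest in HFD replicate 1 and Cdx1 in HLJDD replicate 2. In ND the group means ran Cdx2, Cdx1, Gata5, Gata6, Gata4, Gata6os, Onecut2 and Pdx1 from high to low. Cdx2 (85.0 ± 17.8 FPKM, SD, n = 3) lay above Cdx1 (65.4 ± 0.983) in each ND library, while Gata6 and Gata4 (23.3 ± 0.589 and 16.6 ± 7.53) and, near 0, Onecut2 and Pdx1 overlapped. In HFD and in HLJDD the means ran Cdx2, Cdx1, Gata6, Gata4, Gata5, Gata6os, Onecut2 and Pdx1. In HFD, Cdx2, Cdx1 and Gata6 (54.3 ± 16.2, 48.0 ± 7.60 and 42.4 ± 4.26 FPKM, SD, n = 4) overlapped, as did Gata5 and Gata6os (means 18.3 and 14.1). In HLJDD, Cdx2 and Cdx1 (56.0 ± 14.1 and 51.1 ± 9.11), Cdx1 and Gata6 (36.8 ± 7.54), Gata6 and Gata4 (32.5 ± 4.48), Gata4 and Gata5 (21.4 ± 5.38) and, barely, Gata5 and Gata6os (12.3 ± 2.01) overlapped, with Onecut2 (2.49 ± 1.60) below them. Here and below, bulk RNA cannot tell fewer cells of a type from less RNA in each cell.

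**Figure D1:**
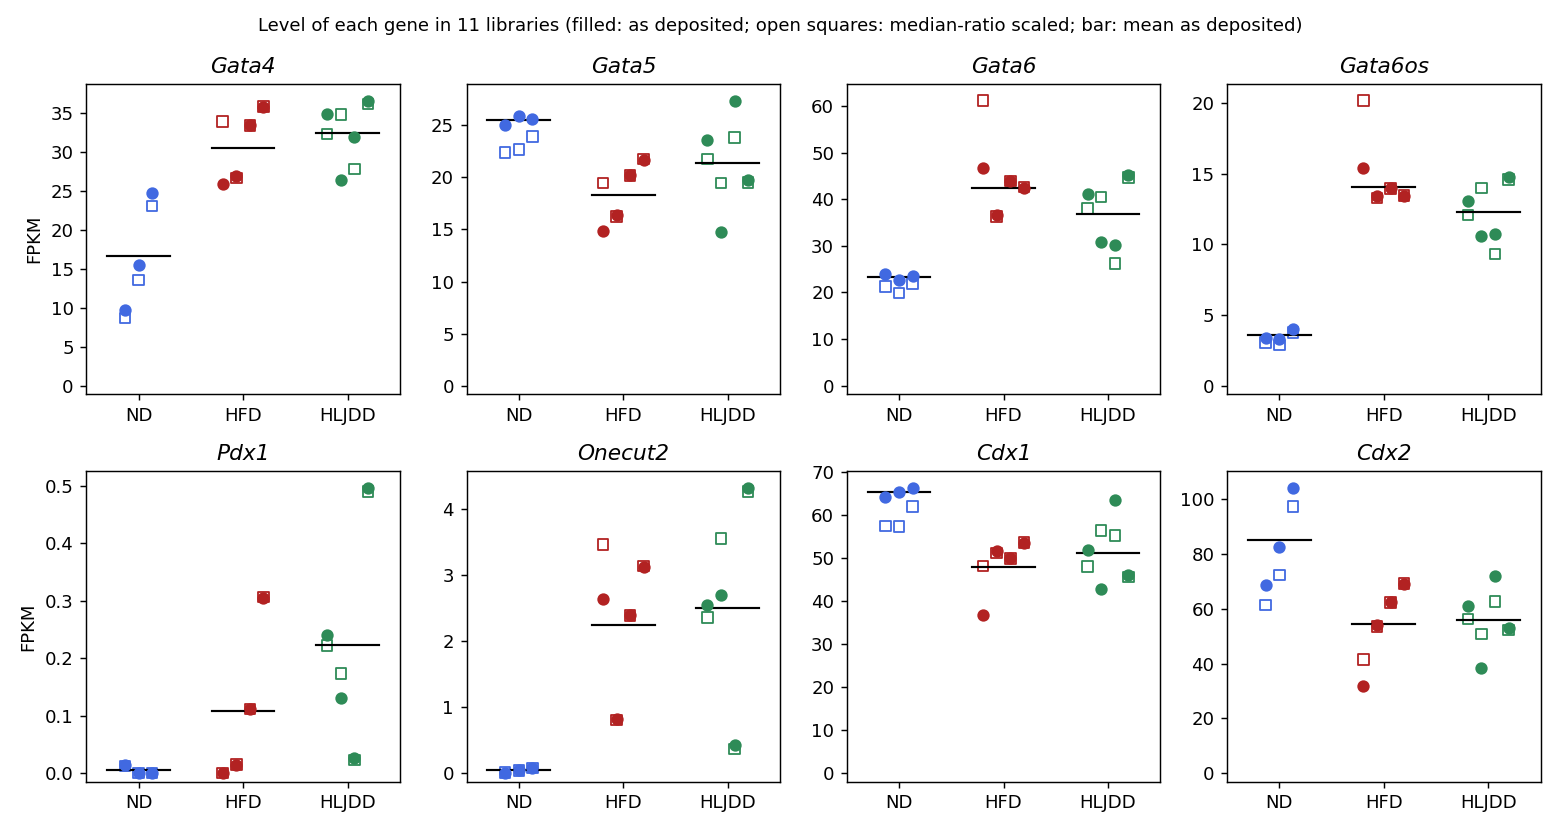
FPKM of the 8 genes in each library (y axis, linear, one scale per panel) by group (x axis: ND, HFD, HLJDD), with filled points as deposited, open squares after median-ratio scaling and bars for the group mean as deposited. As deposited, Gata6os stands between 3.28 and 4.01 FPKM in ND and at 10.6 or more in the other 8 libraries, while the Cdx1 and Cdx2 points of ND move towards the other groups after scaling.

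Gata4, Gata6, Gata6os and Onecut2 were higher in HFD than in ND, and none of the 8 genes was called lower. Gata6os rose most among the genes well above the detection limit, 3.94-fold in mean FPKM, and Gata6 and Gata4 rose 1.82-fold and 1.83-fold. The expression filter asked for 3 or more libraries with 1 FPKM or more, and 7 of the 8 genes met it. Of these, 4 were called in limma at an adjusted p of 0.05 over all 10764 tested genes. Among all tested genes 16.6% were called, 5.06% higher and 11.5% lower, and after scaling 12.6% were called higher and 12.5% lower. All 7 had an unadjusted p under 0.05, as did 36.7% of tested genes. Onecut2 reached the filter only through libraries of HFD and HLJDD and so had to differ. Without it, 3 of 6 were called.

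Gata4, on chromosome 14 (63198914 to 63271712 on GRCm38.p6), encodes the factor of the proximal small intestine. It stood at 9.75, 15.5 and 24.7 FPKM in ND replicates 1 to 3, at 25.9, 26.9, 33.4 and 35.7 in HFD replicates 1 to 4, and at 34.9, 26.4, 32.0 and 36.6 in HLJDD replicates 1 to 4. Every ND library was below every library of the other groups, but ND replicate 3 lay close to HFD replicate 1, and the ND libraries themselves spread over the widest relative range. The log2 change of HFD against ND was 0.91 (SE 0.25; limma, adjusted p = 0.0280), and 1.14 after scaling (adjusted p = 0.00803). Leaving out ND replicate 1 ended the call (adjusted p = 0.132), as did leaving out ND replicate 2 (0.0976), HFD replicate 3 (0.0646) or HFD replicate 4 (0.0559), using no expression filter (0.0694) or scaling libraries to equal sums (0.0748).

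Gata6, on chromosome 18 (11052510 to 11085636), encodes the factor found along the whole small intestine. It stood at 23.9, 22.7 and 23.5 FPKM in ND, at 46.7, 36.6, 44.0 and 42.5 in HFD and at 41.1, 30.7, 30.1 and 45.2 in HLJDD. The ND libraries lay close together and below all others, and HLJDD replicates 2 and 3 were nearest to them. The log2 change of HFD against ND was 0.83 (SE 0.16; limma, adjusted p = 0.00554), and the call held in all 24 settings run, with adjusted p from 0.00211 to 0.0399. Markers of smooth muscle, another tissue where GATA6 is made, were called in 0 of 9 tested, beside 16.6% of all tested genes. Their median log2 change for HFD against ND was -0.60, against -0.205 for all tested genes. They summed to 444 to 631 FPKM in ND, 151 to 600 in HFD and 169 to 452 in HLJDD. The part of muscle in the Gata6 values was not tested.

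Gata6os is a long noncoding RNA that starts beside Gata6 and runs the other way (chromosome 18, 11042037 to 11052567). The pair overlap by 58 bases on RefSeq and share 93 exonic bases in GENCODE vM21, and the strand setting of the counting is not given in the sources used here, so reads in the shared bases cannot be told apart. It stood at 3.41, 3.28 and 4.01 FPKM in ND (120 to 149 reads), at 15.4, 13.4, 14.0 and 13.4 in HFD (452 to 500 reads) and at 13.1, 10.6, 10.7 and 14.8 in HLJDD (319 to 545 reads). The groups did not overlap ND, and the gap was wider than the spread within any group. The log2 change of HFD against ND was 1.72 (SE 0.14; limma, adjusted p = 3.96e-05), called in all 24 settings (adjusted p from 3.52e-05 to 0.0025).

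Gata5, on chromosome 2 (180325088 to 180335503), encodes the third endodermal GATA factor and was not called. It stood at 25.1, 25.9 and 25.6 FPKM in ND, at 14.9, 16.4, 20.2 and 21.7 in HFD and at 23.6, 14.8, 27.4 and 19.8 in HLJDD. All HFD libraries were below all ND libraries, and HLJDD ran from the lowest to the highest value of the series. The log2 change of HFD against ND was -0.47 (SE 0.19; limma, adjusted p = 0.104) and -0.24 after scaling (adjusted p = 0.125). Without HLJDD replicate 2, which enters the shared estimate of spread, the adjusted p was 0.0351.

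The other GATA genes were at or near 0 in these libraries. Gata1, Gata2 and Gata3, factors of blood and immune cells, reached at most 0.0130, 0.297 and 0.121 FPKM. Of the 4 cofactor and related genes tested, none was called in HFD against ND and 1 in HLJDD against ND. Among all tested genes 16.6% and 11.9% were called, and with 4 genes these counts cannot be told from that background. That gene was Zfpm1, which encodes FOG1, a cofactor that binds GATA factors. It stood at 2.76, 6.21 and 10.2 FPKM in ND, at 10.2, 9.18, 13.9 and 15.9 in HFD and at 19.0, 11.3, 12.2 and 25.7 in HLJDD. Like Gata4, it was lowest in ND replicate 1 and highest in HLJDD replicate 4. Its log2 change was 0.96 for HFD against ND (limma, adjusted p = 0.0822, and 0.0362 scaled) and 1.35 for HLJDD against ND (0.0293).

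Onecut2, on chromosome 18 (64340032 to 64398488), had the largest ratio of mean FPKM between HFD and ND among the 7 genes tested. It stood at 0.00612, 0.0432 and 0.0793 FPKM in ND (3, 22 and 41 reads), at 2.64, 0.814, 2.39 and 3.13 in HFD (1171, 382, 1179 and 1621 reads) and at 2.55, 2.70, 0.421 and 4.32 in HLJDD (1313, 1129, 222 and 2216 reads). It was low in all ND libraries, and the lowest other library, HLJDD replicate 3, was above all of them. Mean FPKM was 52.3-fold higher in HFD than in ND, a ratio that rests on few ND reads. The log2(FPKM + 1) change of 1.57 (SE 0.38; limma, adjusted p = 0.0169) understates this because the ND level is far below the added 1. Onecut2 reached the filter only through libraries of HFD and HLJDD and so had to differ, and its call carries no weight. Dropping ND replicate 1 (adjusted p = 0.0721), ND replicate 2 (0.0664) or the filter (0.0576) ended the call. Onecut3, its relative, reached at most 0.0174 FPKM.

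Pdx1, on chromosome 5 (147270097 to 147275848), was barely detected. It had 1, 0 and 0 reads in ND, 0, 1, 8 and 23 in HFD and 18, 8, 2 and 37 in HLJDD, which made 0.0140, 0 and 0 FPKM, then 0, 0.0147, 0.112 and 0.306, then 0.240, 0.132, 0.0261 and 0.496. A count of 0 allows up to 3 reads, or 0.0405 and 0.0400 FPKM in ND replicates 2 and 3 and 0.0466 in HFD replicate 1, which covers counting error only. The higher counts lay in HFD replicates 3 and 4 and HLJDD replicates 1, 2 and 4. Pdx1 did not reach the filter, and the exact two-sided permutation test of group means, unadjusted, gave p = 0.0571 between HLJDD and ND, 0.257 between HFD and ND and 0.400 between HLJDD and HFD (smallest possible 0.0286). Of 5 islet markers in the table, 4 were under 1 FPKM in every library, with Mafa, Nkx6-1 and Ppy at most 0.0525, 0.0148 and 0.114 FPKM. The fifth, Slc2a2, a glucose transporter that enterocytes also make, had 44.1 ± 40.9 FPKM in ND and 76.5 ± 27.3 in HFD (log2 change 1.25; limma, adjusted p = 0.161), so that the islet list summed to 9.07 to 89.6 FPKM in ND, 53.1 to 104.3 in HFD and 33.5 to 102.5 in HLJDD. Of 9 acinar markers, 8 were under 1 FPKM in every library, with Cpa1 and Ctrb1 at most 0.0718 and 0.187. The other one, Cela1, had 4.62 ± 0.763 FPKM in ND and 5.92 ± 1.89 in HFD (adjusted p = 0.402), and the acinar list summed to 3.81 to 7.75 FPKM over the 11 libraries. Their part in the Pdx1 values was not tested.

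Cdx1 and Cdx2 encode the factors of intestinal identity. Cdx2 lies 25051 bases from Pdx1 on chromosome 5 (147300900 to 147307249), and Cdx1 on chromosome 18 (61018862 to 61036199). Cdx2 stood at 68.7, 82.4 and 104.0 FPKM in ND, at 31.7, 54.0, 62.4 and 68.9 in HFD and at 60.9, 38.5, 72.0 and 52.8 in HLJDD. Its lowest values were in HFD replicate 1 and HLJDD replicate 2, which had the most mitochondrial reads, and HFD replicate 4 overlapped ND replicate 1. Cdx1 stood at 64.4, 65.4 and 66.3 FPKM in ND, at 36.8, 51.7, 50.0 and 53.5 in HFD and at 52.0, 42.8, 63.6 and 46.2 in HLJDD. All other libraries were below ND, HLJDD replicate 3 by less than 1 FPKM.

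Neither CDX gene was called. For HFD against ND the log2 change was -0.67 for Cdx2 (SE 0.27; limma, adjusted p = 0.0995) and -0.45 for Cdx1 (SE 0.17; adjusted p = 0.0805). After scaling the changes were -0.43 and -0.21 (adjusted p = 0.110 and 0.126). Quantile normalization called both (adjusted p = 0.0491 for Cdx2 and 0.0480 for Cdx1), and leaving out HLJDD replicate 2 called Cdx1 (0.0425). Of the members, Gata5 and Cdx1 were below ND in every HFD library, as were 32.9% of all tested genes, and 4 members were above ND in every one, as were 9.57%. Onecut2 is among these 4, and its place there carries no weight because it reached the filter only through libraries of HFD and HLJDD.

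**Figure D2:**
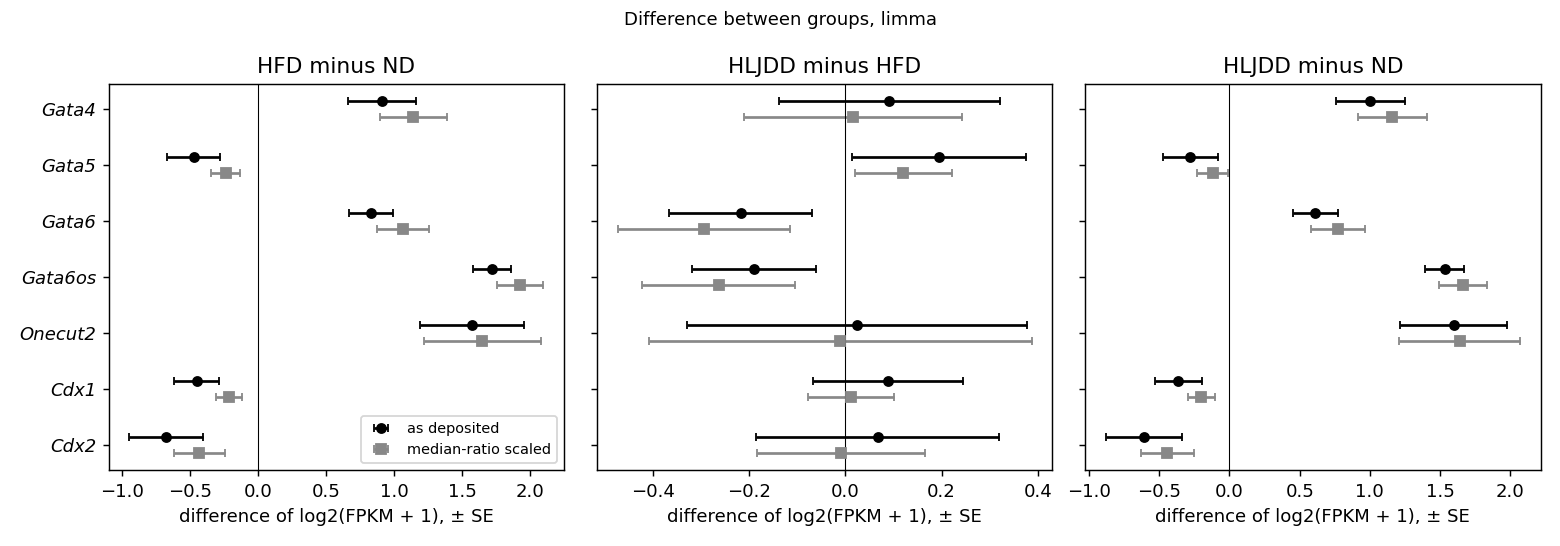
Difference between group means of log2(FPKM + 1), with its SE (x axis; scales differ between panels), for the 7 genes that passed the filter (y axis), in the 3 comparisons, as deposited (black circles) and after median-ratio scaling (grey squares). In HFD minus ND and HLJDD minus ND, Gata4, Gata6, Gata6os and Onecut2 lie to the right of 0 and Gata5, Cdx1 and Cdx2 to the left, nearer to 0 after scaling. In HLJDD minus HFD all 7 lie within 0.30 of 0.

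In HLJDD against ND, Gata4, Gata6, Gata6os and Onecut2 were higher in HLJDD. The 3 ND libraries are those used above, so the values are not independent of those for HFD. Among all tested genes 11.9% were called, 4.10% higher and 7.79% lower (9.39% and 9.88% after scaling), and 3 of the 6 members other than Onecut2 were called. The log2 changes were 1.00 for Gata4 (SE 0.25; limma, adjusted p = 0.0226), 0.61 for Gata6 (SE 0.16; 0.0285), 1.53 for Gata6os (SE 0.14; 9.41e-05) and 1.60 for Onecut2 (SE 0.38; 0.0193). Gata5, Cdx1 and Cdx2 had changes of -0.28, -0.36 and -0.61 (adjusted p = 0.367, 0.175 and 0.165). The libraries of 4 members lay wholly above ND, as did those of 8.30% of tested genes, and of 1, Cdx1, wholly below, as did those of 21.3%. Those 4 again include Onecut2, which had to differ because of the filter. Gata6os was called in all 24 settings, and Gata4, Gata6 and Onecut2 in 18 of 24, 16 of 24 and 17 of 23. Leaving out ND replicate 1, ND replicate 2 or HLJDD replicate 4 left 1 member called, and leaving out HLJDD replicate 1 left 2. In the same order 470, 493, 678 and 802 of all 10764 tested genes were called, against 1279 with all libraries.

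HLJDD against HFD is the comparison closest to the title's question, what the decoction changes in obese mice. None of the 7 members differed by limma at the threshold (adjusted p = 0.999 for each), 0 of 7 passed at an unadjusted p of 0.05 and limma-voom called 0. Among all tested genes 0% were called and 1.73% had an unadjusted p under 0.05. The log2 changes were 0.09 for Gata4 (SE 0.23), 0.19 for Gata5 (SE 0.18), -0.22 for Gata6 (SE 0.15), -0.19 for Gata6os (SE 0.13), 0.02 for Onecut2 (SE 0.35), 0.09 for Cdx1 (SE 0.15) and 0.07 for Cdx2 (SE 0.25). The libraries of the groups overlapped for every member, and 1.03% of tested genes did not overlap. These standard errors do not allow the statement that the groups were alike. Gip, the hormone gene of the title, had 68.9 ± 16.1 FPKM in HLJDD, 100.7 ± 12.8 in HFD (SD, n = 4 each) and 32.7 ± 14.8 in ND (SD, n = 3). Its log2 change was 1.68 for HFD against ND (limma, adjusted p = 0.00218), 1.12 for HLJDD against ND (0.0210) and -0.56 for HLJDD against HFD (adjusted p = 0.999, unadjusted 0.0464). After scaling, Gip had 62.8 to 77.3 in HLJDD and 103.8 to 108.6 in HFD, without overlap. The scaled log2 change was -0.64 and was not called (limma, adjusted p = 0.834, unadjusted 0.0156).

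Ratios within a library do not depend on how libraries are scaled, and the ratios shown were chosen after the values were seen, so no test is given. Gata6os over Gata6 was 0.143, 0.144 and 0.171 in ND, 0.330, 0.366, 0.318 and 0.316 in HFD and 0.318, 0.345, 0.356 and 0.327 in HLJDD. The transcript beside the gene was thus more abundant relative to the gene itself in all 8 libraries of HFD and HLJDD, which lay close together. Gata4 over Cdx2 was 0.142, 0.188 and 0.237 in ND and between 0.444 and 0.816 in the other 8 libraries. Gata6 over Gata5 was 0.878 to 0.952 in ND, 1.96 to 3.14 in HFD and 1.10 to 2.29 in HLJDD, so the order of these factors was opposite in ND. Gata4 over Gata6 and Cdx1 over Cdx2 overlapped between ND and the other groups.

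**Figure D3:**
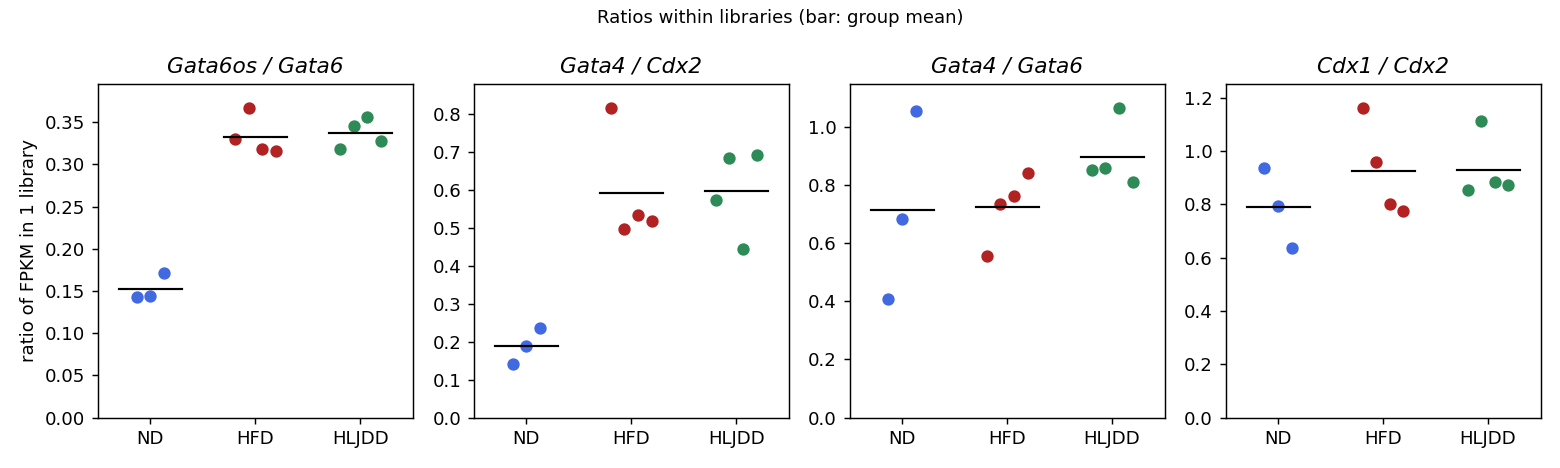
Ratio of FPKM of one gene to another within each library (y axis, linear from 0) by group (x axis), with bars for group means. Gata6os / Gata6 and Gata4 / Cdx2 are lower in all 3 ND libraries than in all 8 others, and Gata4 / Gata6 and Cdx1 / Cdx2 overlap.

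The genes whose promoter windows are shown above were measured in the same libraries. Fabp1 had 476, 1940 and 4390 FPKM in ND, 11584, 11349, 12219 and 14642 in HFD and 11101, 9262, 8372 and 14691 in HLJDD. It was lowest where Gata4 was lowest, in ND replicate 1. Within HFD and within HLJDD, the lowest libraries of Fabp1 and Gata4 differed as deposited and were the same after scaling. A link between their levels was not tested. The log2 change of Fabp1 for HFD against ND, 2.96, was called (SE 0.54, limma, adjusted p = 0.00412). Lct had 11.3, 68.6 and 164.6 FPKM in ND, 157.4, 191.2, 288.6 and 344.3 in HFD and 304.5, 90.4, 324.8 and 296.6 in HLJDD. ND replicate 3 overlapped HFD, and the log2 change of 2.17 was not called as deposited (SE 0.72; adjusted p = 0.0571) and was called after scaling (0.0296).

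The genes known to be held down by GATA4 showed the reverse. Fabp6, the ileal bile acid binding protein, whose window held no match to either motif, had 9821, 6702 and 397 FPKM in ND, 4.31, 3.54, 2.32 and 1.26 in HFD and 1.16, 0.586, 2.27 and 0.212 in HLJDD. Slc10a2 had 256.0, 141.2 and 7.70 FPKM in ND and 0.551 or less in every other library. In HFD against ND, Fabp6 fell by 9.66 and Slc10a2 fell by 5.77 on the log2 scale (limma, adjusted p = 7.32e-05 and 0.00111). Within ND, replicate 3 had the highest Gata4 and the lowest Fabp6 and Slc10a2, and replicate 1 the lowest Gata4 and the highest of both. A link between the levels of the factor and of these genes was not tested.

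**Figure D4:**
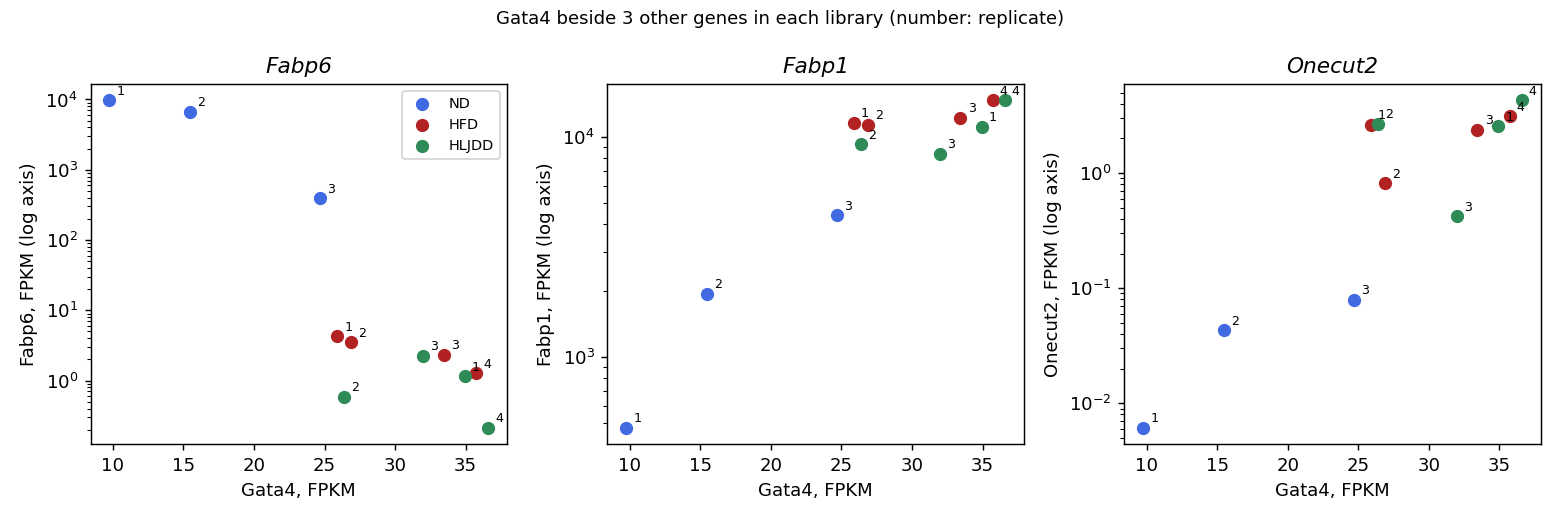
FPKM of Fabp6, Fabp1 and Onecut2 (y axes, log scale) against FPKM of Gata4 (x axis, linear) in each of the 11 libraries, coloured by group and numbered by replicate. The 3 ND libraries lie at the low end of Gata4, with 397 FPKM or more of Fabp6 and 4390 or less of Fabp1, and all 8 others lie at 25.9 FPKM or more of Gata4.

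Genes with a known place along the gut also differed between HFD and ND. Among all tested genes 5.06% were called higher and 11.5% lower (12.6% and 12.5% after scaling). Of 10 tested genes of the proximal small intestine, 6 rose and 2 fell in HFD against ND, with a median log2 change of 2.06 against -0.205 for all tested genes. Rbp2, a retinol binding protein, rose from 1601 ± 743 to 10526 ± 1569 FPKM, Apoa4, an apolipoprotein, from 1430 ± 1310 to 18326 ± 2512, and Slc46a1, the folate transporter, from 5.35 ± 2.64 to 89.2 ± 43.3 (SD, n = 3 and 4). Slc40a1, the iron exporter of the duodenum, fell from 6.54 ± 3.87 to 0.734 ± 0.0719. Of 10 tested genes of the distal small intestine, 7 fell and 0 rose, with a median of -1.59. Besides Fabp6 and Slc10a2, the bile salt exporter genes Slc51a and Slc51b fell from 445 ± 123 to 77.1 ± 22.9 and from 627 ± 172 to 195 ± 27.3 FPKM. Fabp1, Lct and Gip belong to the first list and Fabp6 and Slc10a2 to the second. Whether the stretch of gut taken differed between groups was not tested, and with the labels at hand it cannot be told apart from the groups.

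Of 10 tested genes known to depend on CDX2, 2 fell in HFD against ND and 0 rose, a share near the background of 11.5% of all tested genes called lower and 5.06% called higher. Hnf4a, a nuclear receptor of the enterocyte, fell from 197.8 ± 5.32 to 119.6 ± 12.3 FPKM, and Heph, an iron oxidase, from 72.5 ± 3.97 to 42.0 ± 6.47 (limma, adjusted p = 0.00600 and 0.0151). After scaling 2 of the 10 were called higher and 3 lower, beside 12.6% and 12.5% of all tested genes. None of 5 tested HOX genes was called.

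Other transcription factors of the epithelium were more often lower than higher in HFD. Of 18 tested, 9 fell and 1 rose (the same counts after scaling), beside 11.5% and 5.06% of all tested genes (12.5% and 12.6% after scaling). The median log2 change of the list was -0.61, against -0.205 for all tested genes. Those with the smallest adjusted p were Tcf7l2, the Wnt effector, Hnf4a, Maf, a factor of the mature enterocyte, and Klf4, a factor of goblet cells. Maf stood at 228.0, 153.1 and 108.3 FPKM in ND, at 44.0, 69.0, 57.6 and 44.1 in HFD and at 44.0, 32.2, 59.4 and 24.3 in HLJDD. It was highest in ND replicate 1, where Gata4 was lowest, and it fell by 1.55 on the log2 scale (limma, adjusted p = 0.00642). The 1 that rose was Creb3l3, a factor of lipid metabolism, named after its value was seen, with 190 ± 59.9 FPKM in ND and 326 ± 59.7 in HFD (adjusted p = 0.0441). Of 3 tested factors of enteroendocrine cells, none was called, and crypt markers were called in 0 of 10 tested, with sums of 349 to 404 FPKM in ND, 127 to 421 in HFD and 197 to 499 in HLJDD.

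Across the 11 libraries the members formed groups that also share library depth and the mitochondrial share, so correlations of log2(FPKM + 1) are given as a description. Gata6 and Gata6os had r = 0.95 after scaling over 11 libraries and 0.97 over the 8 of HFD and HLJDD. Gata4 and Onecut2 had 0.82 and 0.95. Cdx1 and Cdx2 had 0.93 as deposited, 0.71 after scaling and 0.38 over the 8. Gata5 and Cdx1 had 0.90 as deposited and 0.54 after scaling.

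The genes most like each member over the 11 libraries, by the highest r as deposited, were Efr3b (r = 0.99), Abcb9, Bri3bp, Prxl2a and St6galnac2 for Gata4. For Gata6 they were Sec24a (0.98), Mcoln3, Zfp280c, Gsk3a and Tmem229b, and for Gata6os they were Ppm1j (0.99), Cldn4, Gprc5a, Pgm2 and Dipk2a. Cldn4, a tight junction protein, had mean FPKM of 17.5 in ND, 112 in HFD and 94.3 in HLJDD. For Onecut2 they were Nr0b2 (0.98), H2-Q10, C8g, Acot2 and Dnah2, and Nr0b2, which encodes the bile acid responsive repressor SHP, had means of 0.159, 4.12 and 4.44 FPKM. For Gata5 they were Tbcd (0.99), Usp5, Prps1, Hars and Fbxo9, for Cdx1 Ppp1r7 (0.99), Thra, Ryk, Qsox1 and Anpep, and for Cdx2 Orai1 (0.98), B3glct, Aig1, Thra and Wdsub1. Those of Gata5 and the CDX genes lost likeness after scaling, as with Anpep, the brush border aminopeptidase, at 0.69 with Cdx1, while all 5 of Gata4 stayed at 0.96 or more.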

How the data were processed

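RNA from mouse small intestine was measured in 11 libraries, grouped by their titles (ND 3, HFD 4, HLJDD 4). Per the labels' protocols, RNA was taken with TRIzol and libraries were made with the VAHTS Universal V6 kit. The submitters' processing notes name fastp, HISAT2, HTSeq, R 3.2.0 and the mm10 genome. The authors deposited FPKM per gene symbol. Annotation, strand setting and other versions were not given in the sources used here. Single files and the series table held the same values (0 differences).

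From the step that 1 read makes in each gene's FPKM, whole reads were recovered for all 24294 symbols (largest distance from a whole number 0.0017). They give the depth and a limma-voom alternative, which called 1710 genes between HFD and ND, 1187 between HLJDD and ND and 0 between HLJDD and HFD. The main test was limma 3.58.1 in R 4.3.3 with a variance trend, two-sided, on log2(FPKM + 1), with genes at 1 FPKM or more in 3 or more libraries (10764), all 11 libraries in one fit and Benjamini-Hochberg adjustment at 0.05. This scale understates the change of low genes. Pdx1, under the filter, had an exact permutation test. The fit was tested on simulated data.

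The genes described, the gene lists and the motifs were chosen with earlier results of these data known. The text names all 8 genes, up to 4 members of each list with the smallest adjusted p (or the highest level), the 5 genes most correlated with each member, and Gip; other names are single counts or examples. Positions and promoter windows come from RefSeq (GRCm38.p6). Alternatives were another pseudocount (0.1), other filters, scalings, variance estimates and sets of libraries, the replicate number as a block, and, added after seeing the data, scaling together with that block and scaling or left-out libraries for Pdx1.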

Additional observations from a re-analysis of the deposited data

How the results depend on the processing

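Counts moved most with the libraries and the scaling. For HFD against ND, 1786 genes were called, 2695 with median-ratio scaling, 2804 with quantile normalization and 3352 without the 2 libraries over 25% mitochondrial. Leaving out single libraries gave 664 (without ND replicate 1) to 3317 (without HLJDD replicate 2), and 689 without ND replicate 2. For HLJDD against ND, 1279 genes were called, 2074 and 2297 with those scalings and 2575 without the 2 libraries, and single left-out libraries gave 470 to 1696 (470 and 493 without ND replicates 1 and 2, 802 and 678 without HLJDD replicates 1 and 4). For HLJDD against HFD, 0 genes were called, 1 without the 2 libraries and 0 to 1 with single libraries left out.

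Of the members, 4 were called in HFD against ND, 2 with no filter and 2 to 6 with single libraries left out (2 without ND replicate 1 or 2, 6 without HLJDD replicate 2). The 4 include Onecut2, which had to differ because of the filter. The count of all genes called moved too, from 1786 to 1382 with no filter. Of 10764 tested genes, 664 and 689 were called without ND replicate 1 or 2, and 3317 without HLJDD replicate 2. In HLJDD against ND, 4 were called (again with Onecut2), 2 with no filter, 2 with equal sums (TPM) and 1 to 4 with single libraries left out. Among all genes 1279 were called, 1099 with no filter, 880 with equal sums and 470 to 1696 with single libraries left out. Without the 2 libraries over 25% mitochondrial, 4 members were called in both, beside 3352 and 2575 of the 10764 tested genes. No member changed direction against ND under any setting run. In HLJDD against HFD, where none was called, Onecut2 (0.02 on the log2 scale) turned to -0.0613 with pseudocount 0.1, -0.0101 with median-ratio scaling (also with the replicate block), -0.0317 with quantile normalization and -0.105 with limma-voom, and single left-out libraries gave -0.234 to 0.408. Cdx2 turned to -0.00907 with median-ratio scaling (also with the block) and to -8.74e-04 without the 2 libraries, and left-out libraries gave -0.166 to 0.232. Cdx1 ran from -0.0315 to 0.167 with left-out libraries.

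Replicate numbers are shared between groups. Deviations from the group mean had r from -0.264 to 0.339 between same-numbered libraries and from -0.609 to 0.530 between others. With so few libraries per group these values cannot tell whether same-numbered libraries share more than a number. With the number as a replicate block, 1080 genes were called for HFD against ND and 724 for HLJDD against ND, and 4 and 3 of the members. The causes of these changes were not tested. Depth limits Pdx1 and, in ND, Onecut2.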
